A study of Mus musculus with 2 samples.

Results

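The 10 genes described here, Bnip3, Ankrd37, Ndrg1, Ddit4, Egln3, Adm, Vegfa, Ero1l, P4ha1 and Selenbp1, were taken by symbol from the 32285 genes of the deposited matrices. All 10 were listed there. The list was drawn up with earlier results of these data in view, so its values are given as a description. They were measured by droplet single-cell RNA sequencing of subcutaneous mouse tumours, with 1 library from mice on a control diet (titled CT) and 1 library from mice on a diet free of serine and glycine (titled SG, the -SG diet of the series' design). The sources used here name neither the tumour line nor the mouse strain, nor how many mice a library holds. With 1 library per diet no difference has a replicate check, no test was made, and every interval below is a 95% interval that covers counting error only.

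In low oxygen the prolyl hydroxylases that mark hypoxia-inducible factor (HIF) alpha subunits for destruction lose activity, and the stabilised factor pairs with ARNT and binds short RCGTG elements near its target genes. Its targets raise glucose uptake and glycolysis, recruit vessels, remove mitochondria and adapt protein folding and collagen formation, and in solid tumours they are highest in poorly perfused areas. Of the 10 genes, Vegfa (the main angiogenic growth factor) and Adm (adrenomedullin, a vasodilator peptide) are secreted signals. Egln3 is itself one of the prolyl hydroxylases and a feedback target of HIF. Bnip3 is a mitophagy receptor, Ddit4 (REDD1) inhibits mTORC1, and Ndrg1 is a stress-responsive growth regulator. Ero1l, an oxidase of the endoplasmic reticulum, and P4ha1, a catalytic subunit of collagen prolyl 4-hydroxylase, act on secreted proteins. Ankrd37 encodes an ankyrin-repeat protein induced by HIF, and Selenbp1 encodes a methanethiol oxidase that binds selenium.

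The start-site sequences show how differently the genes are supplied with the core HIF letters. RefSeq promoter windows (GRCm38.p6, from 250 bases before to 50 bases after a start) were matched for 9 of the 10 genes. Ero1l was matched under its later symbol. In the mm10 annotation Bnip3 lies at chr7:138890836-138909519, Ankrd37 at chr8:45996902-46005707, Ndrg1 at chr15:66929318-66969640 and Ddit4 at chr10:59949669-59951834, all on the minus strand. Genes on the opposite strand overlap Bnip3, Ankrd37, Ndrg1 and Adm, and whether the counting used strand is not stated. The letters ACGTG and GCGTG were searched on both strands, and overlapping matches were counted separately. At least 1 match was present in 9 of the 10 windows of these genes (Vegfa has 2 windows) and in 43.8% of all 32851 windows. Among windows of the other HIF targets, on the lists given below, 49 of 63 had a match. Of the 10 windows, 5 held 3 or more matches, against 8.93% of all windows. The Bnip3 window held 5 matches, Ankrd37 held 4, and Ero1l, P4ha1 and Selenbp1 held 3 each. Ddit4 and Adm held 2 each and Egln3 held 1, while the 2 windows of Vegfa held 0 and 2. A match is a run of letters and not a measured binding site. The 250 bases before the start are printed 5′ to 3′ on the gene's strand, with matches on either strand in capitals, for the pair with the highest odds ratio of joint detection (Bnip3 at chr7:138909507-138909756 and Ankrd37 at chr8:45999851-46000100, both on the minus strand), for P4ha1 (chr10:59323046-59323295, plus strand), and for Selenbp1 (chr3:94932833-94933082, plus strand), whose joint detection with the others differed from the rest.
Bnip3: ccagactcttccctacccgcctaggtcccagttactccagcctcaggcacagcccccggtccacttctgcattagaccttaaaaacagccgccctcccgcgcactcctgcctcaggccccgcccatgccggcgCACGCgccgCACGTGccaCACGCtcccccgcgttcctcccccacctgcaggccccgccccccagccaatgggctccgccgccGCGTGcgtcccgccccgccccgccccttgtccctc
Ankrd37: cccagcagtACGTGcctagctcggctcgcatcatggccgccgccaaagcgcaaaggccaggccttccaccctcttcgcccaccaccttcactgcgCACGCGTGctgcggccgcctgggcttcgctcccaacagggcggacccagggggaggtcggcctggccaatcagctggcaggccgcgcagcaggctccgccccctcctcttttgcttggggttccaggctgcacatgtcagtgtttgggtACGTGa
P4ha1: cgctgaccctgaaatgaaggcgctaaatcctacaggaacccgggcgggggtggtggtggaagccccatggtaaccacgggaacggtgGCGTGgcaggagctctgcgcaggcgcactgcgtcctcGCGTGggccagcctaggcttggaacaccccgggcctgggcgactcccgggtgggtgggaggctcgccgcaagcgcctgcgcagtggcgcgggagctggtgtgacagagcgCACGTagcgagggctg
Selenbp1: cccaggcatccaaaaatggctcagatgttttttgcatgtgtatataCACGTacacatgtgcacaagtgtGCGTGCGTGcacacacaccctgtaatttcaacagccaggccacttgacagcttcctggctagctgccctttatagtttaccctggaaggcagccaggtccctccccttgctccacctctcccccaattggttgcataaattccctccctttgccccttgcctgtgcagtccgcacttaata

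In presumed tumour cells 8 of the 10 genes were measurable, and all 8 were higher in the library from the serine/glycine-free diet, hereafter the SG-free library. Presumed tumour cells were the clusters that no leukocyte, fibroblast, endothelial or other cell-type panel named, with 10813 cells in the control and 14167 cells in the SG-free library. One of them, led by Cp, Ogn and C1s1, was enriched for 3 fibroblast genes. Its mean log2 enrichment for that panel was 0.01, too low for the name. Levels are UMIs (counted RNA molecules) summed over the cells of a library and scaled to all UMIs of those cells, as CPM. A gene was measured where it had 100 or more UMIs over both libraries, and it was counted as higher or lower at a log2 ratio of 0.5 or more, or of -0.5 or less. The 8 measured genes each had at least 100 UMIs in the control library alone. Of the 8, 6 were higher by this rule and 0 lower, with a median log2 ratio of 0.83. Among all 13420 genes measured in these cells 5.61% were higher and 4.85% lower by the same rule, and 56.0% had any ratio above 1, with a median of 0.03.

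**Figure D1:**
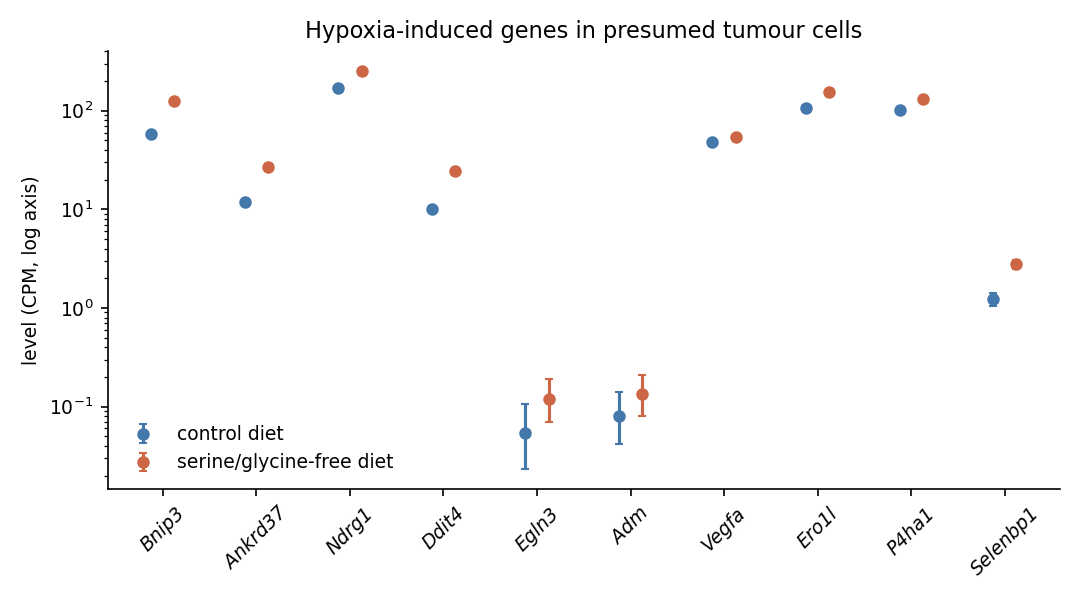
Level of each gene in presumed tumour cells (CPM, log axis), with 1 point per library and bars for the exact Poisson 95% interval. The points of the SG-free library lie above those of the control library for the 8 measured genes, with the widest gaps for Ddit4, Selenbp1, Ankrd37 and Bnip3, while the intervals of Egln3 and Adm overlap.

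Bnip3 stood at 58.3 CPM in the control library and 124 CPM in the SG-free library, a log2 ratio of 1.09 (1.05 to 1.13). Ankrd37 stood at 12.0 and 26.8 CPM, a log2 ratio of 1.16 (1.08 to 1.24). Ddit4 stood at 10.1 and 24.5 CPM, a log2 ratio of 1.28 (1.20 to 1.37). That was the highest of the measured genes over pooled cells, but with equal weight to each tumour cluster it was 1.01, below Bnip3 and Ankrd37 at 1.04 and 1.17. These 3 genes, for mitophagy, an ankyrin-repeat protein and the mTORC1 brake, were at ranks 149, 127 and 98 from the top of the 13420 ratios. Selenbp1 was sparse, with 183 and 393 UMIs (1.22 and 2.78 CPM), and its log2 ratio was 1.18 (0.93 to 1.44). Its near-identical neighbour Selenbp2, with which it can share reads, had 1 and 4 UMIs in these cells and how reads that fit both were counted is not stated, so the value of Selenbp1 is uncertain.

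Ndrg1 and Ero1l were higher by less. Ndrg1 stood at 169 and 252 CPM, a log2 ratio of 0.57 (0.55 to 0.60), and Ero1l at 107 and 156 CPM, a log2 ratio of 0.54 (0.51 to 0.57). Without the 1 tumour cluster richest in these transcripts both were below 0.5, at 0.36 and 0.34, and the number of genes higher was then 4. P4ha1 stood at 103 and 130 CPM, a log2 ratio of 0.34 (0.31 to 0.37). Vegfa differed least, with 47.8 and 53.5 CPM and a log2 ratio of 0.16 (0.12 to 0.21), at rank 3492. The vascular signal Adm and the hydroxylase Egln3 were close to absent from tumour cells, with 12 and 19 UMIs of Adm and 8 and 17 UMIs of Egln3 in the control and SG-free library. On the linear scale the mitophagy receptor Bnip3 and the mTORC1 inhibitor Ddit4 were 2.13 and 2.43 times as high in the SG-free library, beside 1.46 times for Ero1l, 1.27 times for P4ha1 and 1.12 times for Vegfa.

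The libraries differed in depth per cell, with a median of 12810 UMIs per tumour cell in the control and 8867 in the SG-free library. Shares of cells were therefore taken after each cell was thinned at random to 4000 UMIs, which left 10578 and 12961 cells and left out 2.17% and 8.51%. The loss was uneven, since the cluster led by Cp, Ogn and C1s1 went from 1074 to 1007 control and from 2486 to 1726 SG-free cells. Ddit4 and Selenbp1 were highest in that cluster, and the part of this loss in the thinned values was not tested. Bnip3 then had a UMI in 17.6% of control and 30.9% of SG-free cells (35.5% and 46.9% before thinning). Ankrd37 had one in 4.73% and 9.41% (11.3% and 16.8% before thinning), and Ddit4 in 4.21% and 9.40% (11.3% and 18.6%). For Ndrg1 the thinned shares were 41.3% and 47.0%, although the unthinned share was lower in the SG-free library (70.5% and 65.2%). Ero1l was found in 29.4% and 35.0% and P4ha1 in 30.4% and 35.5% of thinned cells, with unthinned shares of 59.7% and 54.5%, and 62.8% and 58.2%. Vegfa was found in 16.9% and 18.5% (41.9% and 36.0% before thinning), and Selenbp1 in 0.690% and 1.19% (1.45% and 2.39%). Egln3 had a UMI in 0 of 10578 thinned control cells, which allows up to 0.0284% of cells with a UMI at that depth, and in 6 thinned SG-free cells. Before thinning it had one in 7 control cells (0.065%), so the limit is not one on cells that express it. Where a gene was present, Ndrg1, Ero1l and Bnip3 also had more UMIs per positive cell, by 1.35, 1.27 and 1.16 times. Ddit4 had 1.06 times as many, but a positive cell holds at least 1 UMI by definition. At 1.11 and 1.18 UMIs per positive cell, a gene as sparse as Ddit4 has little room to differ on this measure.

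The genes were found together in single tumour cells more often than separate detection gives. Of the 45 pairs, 26 had at least 5 cells expected with both genes in each library if they were independent. Their median odds ratio of joint detection was 1.48 in the control and 1.68 in the SG-free library, and the interval lay above 1 for 18 and 19 pairs. Bnip3 and Ankrd37 were the closest pair in both libraries. They shared 232 control cells, where 87.8 were expected, with odds ratios of 4.50 (3.75 to 5.41) in the control and 4.22 (3.74 to 4.77) in the SG-free library. Bnip3 with Ndrg1 had odds ratios of 2.45 (2.21 to 2.71) and 3.60 (3.33 to 3.90), and Ankrd37 with Ndrg1 had 2.53 and 3.55. Bnip3 with Ero1l had 1.7 and 2.68. Vegfa was less tightly tied, with a median odds ratio over its 7 pairs of 1.35 and 1.67. Cells are not replicates of a diet, so these intervals describe 2 libraries. Odds ratios for pairs of other genes were not computed, so the counts of pairs have no share over all genes beside them. The values also pool all tumour clusters, whose levels of these genes differed (given below). The part of the cluster differences in these odds ratios was not tested.

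Ddit4 and Selenbp1 had the lowest odds ratios. The 6 pairs of Ddit4 had a median odds ratio of 1.23 and 1.27, and with Ero1l the values were 0.851 (0.686 to 1.06) and 0.999 (0.883 to 1.13). Selenbp1 with Bnip3 had an odds ratio of 2.78 (1.72 to 4.48) in the control library, on 27 cells, and of 0.73 (0.51 to 1.06) in the SG-free library. With Ndrg1, Ero1l and P4ha1 it had odds ratios of 0.61, 0.54 and 0.57 in the SG-free library, the 3 of the 26 pairs whose intervals lay below 1. Ddit4 was nonetheless tied weakly to the others. Its interval lay above 1 for 2 of the 6 pairs in the control and 4 in the SG-free library, with 1.54 (1.23 to 1.92) and 1.27 (1.12 to 1.44) for Bnip3. From cells with none of the other 9 genes to cells with 5 or more, Ddit4 went from 0.046 to 0.110 UMIs per cell in the control and from 0.096 to 0.242 in the SG-free library. Most of this lay in the upper groups, since cells with 3 of the other genes stood at 0.053 and 0.110. The control value for 5 or more rests on 19 UMIs (0.067 to 0.173). Ddit4 with Selenbp1, a pair with fewer than 5 expected cells in the control, had odds ratios of 2.05 (0.886 to 4.76), on 6 cells, and 3.34 (2.31 to 4.83), on 39 cells. Ankrd37 with Selenbp1, also under that limit, had 2.50 (1.20 to 5.25), on 8 cells, and 0.456 (0.213 to 0.975), on 7 cells.

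**Figure D2:**
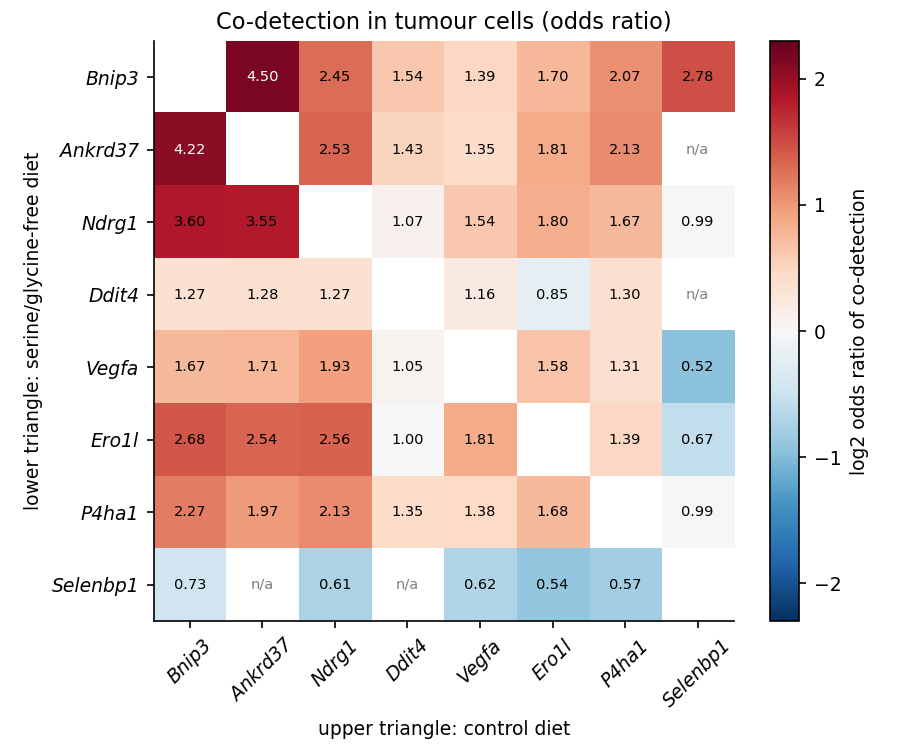
Odds ratio of finding both genes of a pair in the same thinned tumour cell, as numbers and as colour on a log2 scale, with the control library above the diagonal and the SG-free library below it. Bnip3, Ankrd37 and Ndrg1 form the reddest block, the row of Ddit4 is pale, and the row of Selenbp1 is blue in the SG-free library (n/a marks pairs with fewer than 5 expected cells).

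Cells carrying many of the genes at once were rare and were more frequent in the SG-free library. At least 3 of the 10 were found in 18.3% of control and 30.1% of SG-free cells, and at least 4 in 6.47% and 15%. High cells were set at 5 or more genes, the smallest number that at most 5% of control cells reached. There were 200 high cells of 10578 in the control (1.89%, 1.64 to 2.17) and 773 of 12961 in the SG-free library (5.96%, 5.56 to 6.39), a ratio of 3.15 (2.71 to 3.68). Independent detection at each library's own shares would give 0.298% and 1.24%. Just inside the limit, with exactly 5 genes, were 155 and 584 cells, and just outside it, with 4, were 484 and 1169 cells. No cell of either library had 8 or more. At the other end, 24.3% of control and 18.8% of SG-free cells had none of the 10. The size of the ratio moved with the limit and the depth, from 1.73 without thinning to 3.43 with a limit of at most 1% of control cells.

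**Figure D3:**
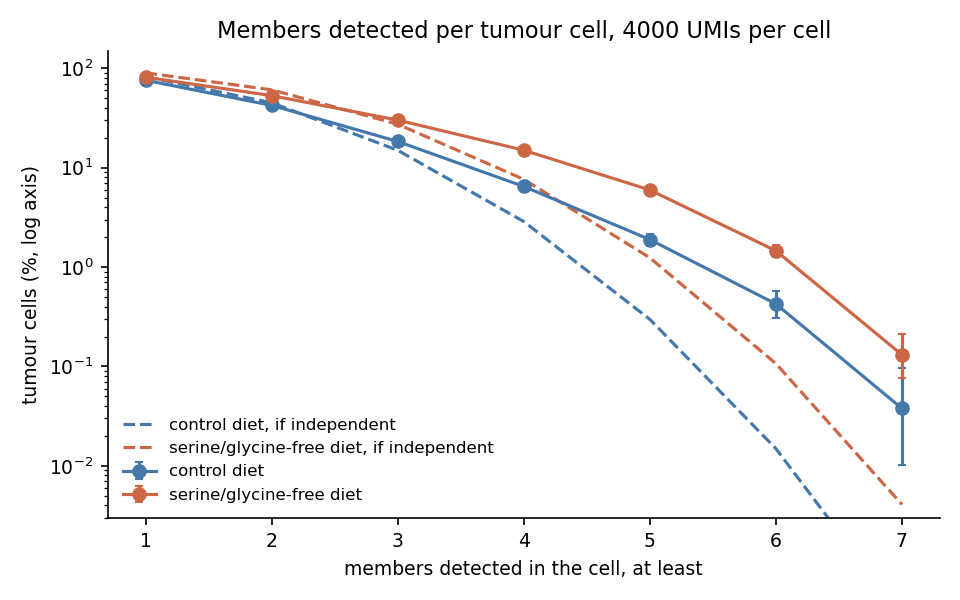
Share of thinned tumour cells (percent, log axis) in which at least the given number of the 10 genes had a UMI, with exact 95% intervals, and as dashed lines the share that independent detection would give. The solid lines lie above the dashed lines from 3 genes on in both libraries and below them at 1 and 2 genes, and the SG-free line lies above the control line at every number.

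Both a larger number of high cells and a higher level outside them were present in the SG-free library. The mean over all thinned tumour cells was 2.15 UMIs of the 10 genes per cell in the control and 3.31 in the SG-free library, 1.54 times as many. Among the high cells the means were 11.6 and 13.4 UMIs, 1.16 times as many, and among all other cells 1.97 and 2.66, 1.36 times as many. High cells held 10.2% of the UMIs of the 10 genes in the control and 24.2% in the SG-free library. To see where each gene differed without using it to sort the cells, cells were grouped by how many of the other 9 genes they showed. The share of the difference that came from more cells in the upper groups, and not from the level within groups, was 86.5% for Vegfa, 63.1% for P4ha1, 59.2% for Ndrg1 and 50.5% for Ero1l. It was 42.0% for Ankrd37, 31.6% for Bnip3 and 7.7% for Ddit4, and -2.2% for Selenbp1. The grouping is coarse, since a gene missed at 4000 UMIs moves a cell down a group and a rise in all cells moves cells up, so these shares describe the split and do not settle it. Among cells with none of the other 9 genes, Bnip3 still stood at 0.123 and 0.180 UMIs per cell (1.46 times, 1.27 to 1.68) and Ddit4 at 0.046 and 0.096 (2.08 times, 1.68 to 2.60), while Ndrg1 stood at 0.415 and 0.412 (0.992 times, 0.923 to 1.07).

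A ranking of the cells by genes outside the list gave a similar division. Ankrd37 differed, since its interval among the lower-ranked cells lay above 1. Within each library, tumour cells were ranked by their UMIs of the other HIF targets (the non-glycolytic and glycolytic lists given below), a grouping added after the data had been seen. Up to the median of the ranking, Bnip3 was 1.72 times as high in the SG-free library (1.55 to 1.92), Ankrd37 1.68 times (1.33 to 2.13) and Ddit4 2.2 times (1.90 to 2.55). In those same cells Ndrg1 was at 0.959 times (0.909 to 1.01), Ero1l at 0.967 times (0.906 to 1.03), Vegfa at 0.917 times (0.840 to 1.002) and P4ha1 at 1.05 times (0.991 to 1.12). Between the 75th and the 90th percentile the ratios were 2.57 for Bnip3, 2.90 for Ankrd37, 2.07 for Ndrg1, 2.08 for Ero1l, 1.45 for P4ha1, 1.35 for Vegfa and 2.18 for Ddit4. Hence the SG-free excess of Ndrg1, Ero1l, Vegfa and P4ha1 was seen in the cells above the median of the ranking, and that of Bnip3, Ankrd37 and Ddit4 in every band. Selenbp1 went the other way, with 2.37 times (1.67 to 3.44) up to the median and 0.612 times (0.228 to 1.58) between the 75th and the 90th percentile. Bands are ranks within a library, and the median count of the ranking genes was itself larger in the SG-free library, at 24 and 29 UMIs up to the median and 81 and 116 in the top 5%.

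**Figure D4:**
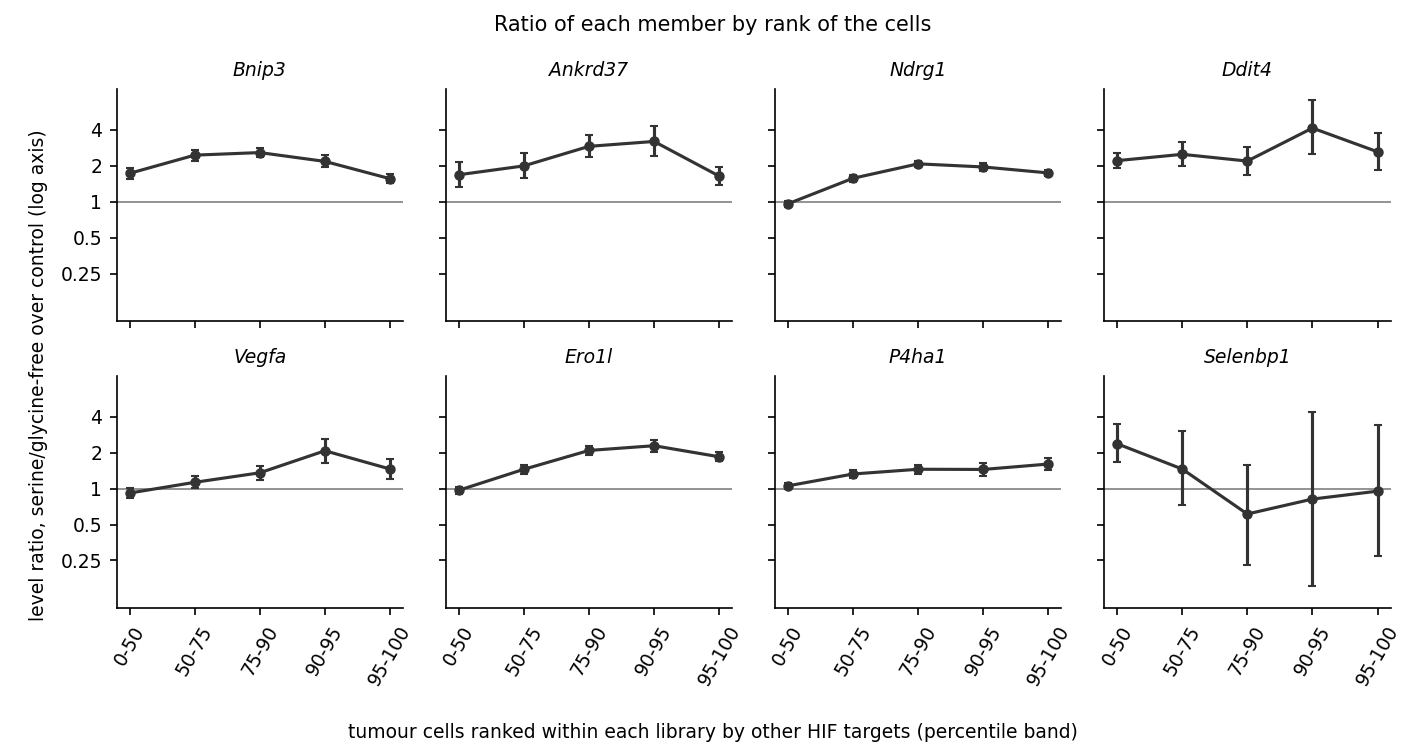
Ratio of each gene's level, SG-free over control (log axis), in bands of tumour cells ranked within each library by UMIs of other HIF targets, with 95% counting intervals and a line at 1. Ndrg1, Ero1l and Vegfa start near 1 in the lowest band and reach about 2 in the upper bands, whereas Bnip3, Ankrd37 and Ddit4 lie above 1 throughout.

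The same differences were present inside the 9 tumour clusters, which were made without the 10 genes or the other HIF genes. Bnip3 was higher in the SG-free library in 9 of 9 clusters (log2 ratios 0.46 to 1.43), as were Ankrd37 (0.32 to 1.7), Ndrg1 (0.33 to 0.88), Ddit4 (0.65 to 1.36), Ero1l (0.36 to 0.69) and P4ha1 (0.05 to 0.44). Vegfa was higher in 8 of 9 (-0.15 to 0.51) and Selenbp1 in 7 (-0.66 to 2.25), with intervals above 0 in 6 and 3 clusters. One cluster, led by Cxcl1, Gadd45b and Cryab, held the highest level of Bnip3, Ankrd37, Ndrg1, Vegfa, Ero1l and P4ha1 in both libraries. Across clusters Bnip3 ranged from 30.3 to 303 CPM in the control and from 72.7 to 418 CPM in the SG-free library, with that cluster at the top. It held 570 and 1556 cells, and 49.5% and 55.1% of all high cells, which made up 18.2% and 31.2% of its thinned cells. Ddit4 and Selenbp1 were instead highest in a cluster led by Cp, Ogn and C1s1, at 28.6 and 58.8 CPM for Ddit4 and 7.08 and 12.2 CPM for Selenbp1. That cluster held 1074 control and 2486 SG-free cells, with 63 and 167 UMIs of Selenbp1. With equal weight to each tumour cluster the log2 ratio of Selenbp1 was 0.83.

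Cells with 5 or more of the genes also differed in other readouts. From cells with none of the 10 to cells with 5 or more, glycolytic HIF targets went from 24.8 to 58.0 UMIs per thinned cell in the control and from 29.1 to 72.6 in the SG-free library. The other HIF targets went from 5.37 to 14.9 and from 5.43 to 16.7, and Car9, a carbonic anhydrase used as a hypoxia marker, from 0.004 to 0.080 and from 0.002 to 0.151. The glucocorticoid-responsive list given below also went from 5.53 to 10.3 and from 7.76 to 11.7 UMIs. That list includes the metallothioneins Mt1 and Mt2, and their part in this difference was not tested. In cells with Bnip3, Mt1 was 1.58 and 1.65 times as high as in cells without. The list without Mt1 and Mt2 was 1.05 and 0.970 times as high there. Proliferation markers were lower in cells with 5 or more of the genes, going from 7.21 to 2.63 and from 9.66 to 4.14 UMIs. Hif1a mRNA, whose product is regulated mainly as protein, was at 0.208 and 0.220 in the control and 0.268 and 0.361 in the SG-free library. In the control it was higher between these ends, at 0.300 in cells with 4 of the genes. High cells were shallower before thinning, with median depths of 13432 and 10484.5 UMIs for none and 5 or more in the control and 9930.5 and 7727 in the SG-free library, and their median mitochondrial share was lower (4.55% and 3.31%, 4.16% and 2.98%). The part of depth and mitochondrial content in these differences was not tested.

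Of 7295 genes outside the list that were found in at least 5% of thinned tumour cells of each library, Pgk1 followed the number of members detected most closely across cells, with Pearson's r of 0.274 in the control (10578 cells) and 0.457 in the SG-free library (12961 cells). Ldha (0.262 and 0.376), Mif (0.224 and 0.348), Higd1a (0.223 and 0.359) and Fam162a (0.223 and 0.336) came next. The next 10 were Tpi1, Ftl1, Mt1, Slc2a1, Malat1, Bhlhe40, Pkm, Gapdh, Pgam1 and Egln1, so that 12 of the 15 were on the HIF lists fixed for this comparison. The lowest values belonged to the chromatin genes H2afz (-0.23 and -0.25) and Hmgb1, to S100a4, and to the mitochondrial transcripts mt-Nd1 and mt-Cytb. All genes of a cell share its library and depth, and these correlations are weak.

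The other lists of the pathway had lower median ratios than the 8 measured genes, which were chosen with earlier results of these data known, but single genes such as Car9, Pgk1, Pdk1 and Egln1 had higher ratios than Ndrg1, Ero1l, P4ha1 and Vegfa. Among 12 genes of the HIF machinery 10 were measured in tumour cells, with 2 higher, 0 lower and a median log2 ratio of 0.22. The oxygen sensor Egln1 stood at 77.6 and 126 CPM (log2 ratio 0.70), Hif1a at 57.4 and 72.0 CPM (0.33), the HIF coactivator competitor Cited2 at 127 and 162 CPM (0.36) and the ubiquitin ligase subunit Vhl at 8.66 and 10.2 CPM (0.24). Epas1, which encodes HIF-2 alpha, had 7 and 12 UMIs. Of 30 other non-glycolytic HIF targets 26 were measured, with 4 higher, 3 lower and a median of 0.31. Car9 stood at 3.33 and 6.11 CPM (0.88), Bnip3l, a mitophagy receptor related to Bnip3, at 129 and 195 CPM (0.60) and Bhlhe40, a transcriptional repressor, at 43.1 and 63.1 CPM (0.55). Angptl4, a lipase inhibitor, was lower, at 20.7 and 14.2 CPM (-0.55). Of the glycolytic HIF targets 17 of 19 were measured, with 4 higher, 0 lower and a median of 0.42. Pgk1 stood at 709 and 1201 CPM (0.76), the kinase Pdk1 at 14.3 and 24.1 CPM (0.75), the glucose transporter Slc2a1 at 33.0 and 49.9 CPM (0.60) and Ldha at 808 and 1098 CPM (0.44). Gapdh stood at 2451 and 3380 CPM (0.46).

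Ddit4 is also a textbook target of the glucocorticoid receptor and of the stress factor ATF4, so genes of those pathways were read beside it. Of 12 glucocorticoid-responsive genes 11 were measured, with 7 higher, 0 lower and a median log2 ratio of 0.57. Cebpd stood at 45.8 and 142 CPM (1.63), the kinase Sgk1 at 41.2 and 100.3 CPM (1.28), the phosphatase Dusp1 at 47.4 and 106 CPM (1.16) and Tsc22d3 (GILZ) at 64.3 and 126 CPM (0.97). Of the ATF4 targets 13 were measured, with 0 higher, 1 lower and a median of -0.10. Nupr1 stood at 327 and 191 CPM (-0.77), Trib3 at 32.7 and 24.2 CPM (-0.43), Cebpb at 251 and 354 CPM (0.50, just under the limit) and Vldlr, which is also on a HIF list, at 77.5 and 107 CPM (0.46). In single cells with a Ddit4 UMI, the glucocorticoid list without the metallothioneins Mt1 and Mt2 stood at 3.35 UMIs, against 2.70 in cells without (1.24 times) in the control, and at 6.07 against 4.29 (1.42 times) in the SG-free library. For cells with and without Bnip3 the same list gave 1.05 and 0.970 times. Removing Mt1 and Mt2, a step taken after the data had been seen, made this contrast, since the full list gave 1.15 and 1.30 times for Ddit4 and 1.27 and 1.23 times for Bnip3. Glycolytic HIF targets divided the genes the other way, at 1.06 and 1.06 times for Ddit4 and 1.56 and 1.67 times for Bnip3. With Selenbp1 the glucocorticoid list without Mt1 and Mt2 gave 1.48 and 2.02 times (1.04 and 1.47 times for the full list), and the ATF4 list 0.605 and 0.710 times, on 73 and 154 cells. Ddit4 and Selenbp1 were both highest in the cluster led by Cp, Ogn and C1s1, where Cebpd was also a leading gene. The part of cluster membership in these ratios was not tested.

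Macrophages and monocytes carried the genes at levels close to or above those of tumour cells. This class, named from its markers, held 1587 control and 2055 SG-free cells, and the 10 genes summed to 666 and 872 CPM there (log2 ratio 0.39, 0.34 to 0.44), beside 508 and 769 CPM in tumour cells. Tumour-typical Hmga2, Rhox5 and Krt20 were present in the class at a median of 7.68% and 10.6% of their tumour-cell level, a measure of free RNA. By contrast Bnip3 stood at 94.5 and 142 CPM (log2 ratio 0.59) and Ndrg1 at 173 and 272 CPM (0.66), and they were the 2 of 9 measured genes that were higher, where 4.69% of 9244 genes measured in the class were. Ankrd37 stood at 30.7 and 43.1 CPM (0.49) and Ero1l at 89.5 and 123 CPM (0.46). Vegfa (83.2 and 82.6 CPM), P4ha1 (127 and 131 CPM), Ddit4 (18.9 and 18.9 CPM) and Selenbp1 (26.1 and 27.0 CPM) had log2 ratios whose intervals included 0. Selenbp2 had 22 and 29 UMIs in the class, beside 200 and 190 of Selenbp1. Egln3, close to absent from tumour cells, had 165 and 180 UMIs here (21.5 and 25.6 CPM).

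Within the class the summed level was higher in the monocyte-like cluster, led by F10, Thbs1 and Mcemp1, at 1176 and 1464 CPM in 562 and 671 cells (2342 and 2222 UMIs). In the C1q-positive macrophage cluster, of 1025 and 1384 cells, the sums were 487 and 709 CPM (2759 and 3911 UMIs). Adm went the other way in the control library, with 1 UMI in the former and 17 in the latter. In the SG-free library it did not, at 9.22 and 6.71 CPM on 14 and 37 UMIs. For the sum, the SG-free excess was larger in the C1q-positive cluster, with log2 ratios of 0.54 (0.47 to 0.61) against 0.32 (0.23 to 0.40). Egln3 stood at 70.3 and 96.2 CPM in the monocyte-like cluster and at 4.41 and 6.17 CPM in the C1q-positive one. Cells of the class thinned to 1500 UMIs had 3 or more of the 10 genes in 10.7% and 13.1% of cells, beside 4.15% and 9.56% of tumour cells at the same depth, and 5 or more in 2.05% and 2.32%, beside 0.176% and 0.753%. Over the whole class, odds ratios of joint detection were 4.29 and 3.91 for Bnip3 with Ndrg1 and 9.36 and 4.81 for Egln3 with Vegfa. These values pool both clusters. Vegfa, like Egln3, was higher in the monocyte-like one, at 215 and 212 CPM against 36.9 and 47.2 CPM. The part of the cluster difference in these odds ratios was not tested.

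**Figure D5:**
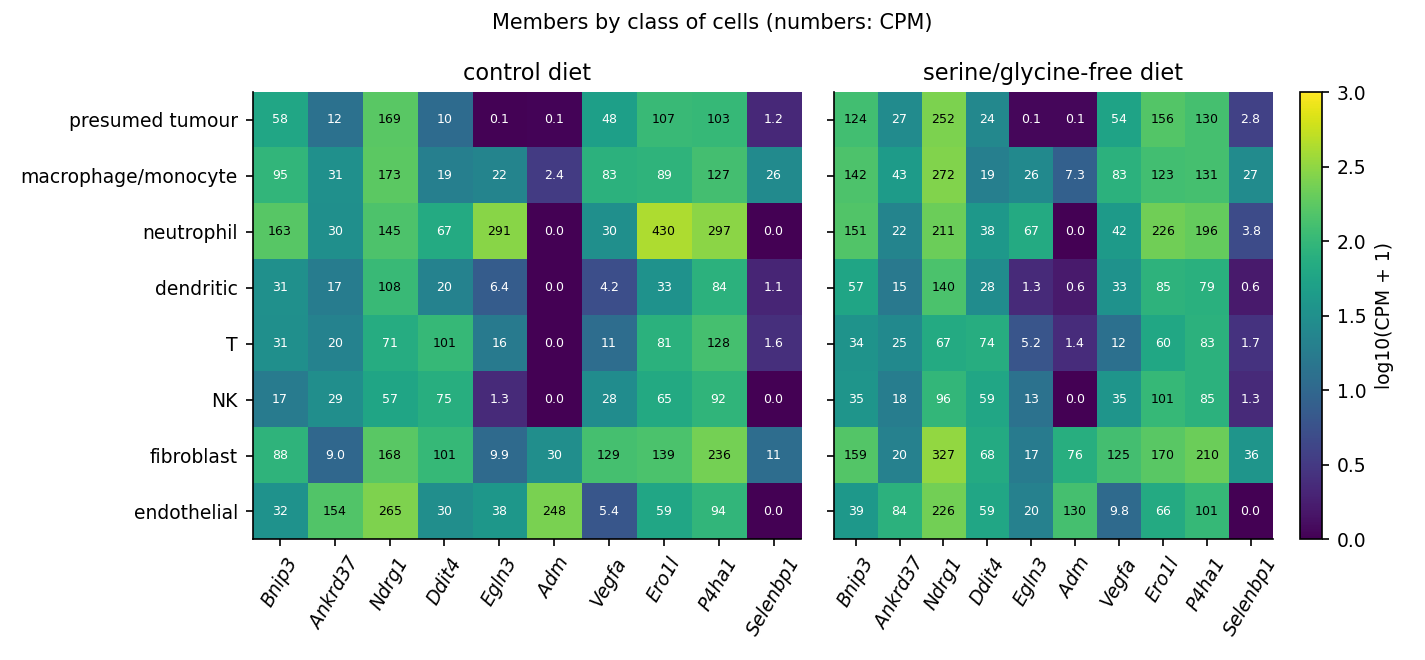
Level of each gene (CPM, printed in each cell and shown as colour on a log10 scale) by class and library. Adm stands out in endothelial cells, Egln3 in neutrophils and macrophages or monocytes, and both are near 0 in presumed tumour cells.

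The smaller classes held some of the genes at levels unlike those of tumour cells. Adm, the vasodilator, was highest in endothelial cells (48 and 65 cells), at 248 and 130 CPM on 92 and 53 UMIs, followed by fibroblasts, at 29.8 and 76.0 CPM on 33 and 91 UMIs. Ankrd37 was likewise highest in endothelial cells, at 154 and 83.5 CPM, whereas Vegfa was near its lowest there, at 5.40 and 9.83 CPM on 2 and 4 UMIs. Fibroblasts (112 and 162 cells) held Vegfa at 129 and 125 CPM and P4ha1 at 236 and 210 CPM. Bnip3 stood there at 88.4 and 159 CPM (log2 ratio 0.84), Ndrg1 at 168 and 327 CPM (0.96) and Ddit4 at 101 and 67.6 CPM (-0.58). Tumour-typical genes were at 16.6% and 25.5% of their tumour-cell level in fibroblasts, and their part in these ratios was not tested. In T cells Ddit4 stood at 101 and 74.0 CPM, 10.1 and 24.5 CPM being its tumour-cell level, although tumour-typical genes were at only 4.25% and 2.91% of their level there. P4ha1 stood at 128 and 82.7 CPM in T cells (-0.63). The larger T-cell cluster was led by Bcl11b in the control (268 of 497 cells) and by Pdcd1 and Cd3g in the SG-free library (819 of 1515 cells), and the part of that change in the T-cell ratios was not tested. Natural killer cells had 364 and 443 CPM of the 10 genes together, with tumour-typical genes at 2.25% and 14.2% of their tumour-cell level. In dendritic cells the sum was 305 and 440 CPM, but tumour-typical genes were at 18.6% and 46.4% of their tumour-cell level, and in neutrophils (123 and 194 cells) it was 1453 and 957 CPM with tumour-typical genes at 44.3% and 90.6%. Egln3 in neutrophils, at 291 and 66.6 CPM on 48 and 52 UMIs, stood far above its tumour-cell level of 0.05 and 0.12 CPM. It had a UMI in 23.6% and 19.6% of the neutrophils. All neutrophils together held 165139 and 780284 UMIs, with medians of 847 and 715 per cell. The part of these totals in the CPM values was not tested. B and plasma cells had 11 UMIs of the 10 genes in the control library and are not compared.

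The control library held 14774 barcodes and the SG-free library 20662, with 173785388 and 173592046 UMIs, and 13624 and 19240 cells were analysed. The libraries shared 87 barcodes. More than 20% mitochondrial UMIs were seen in 3.99% and 1.63% of barcodes, which were left out, and 535 and 1072 cells were removed as likely doublets.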

How the data were processed

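Single-cell RNA of mouse tumours was measured in 1 library per diet. The deposited values are raw UMI counts per gene and barcode, which the authors obtained with Cell Ranger, version 7.0.1 per the file headers and 2.2.2 with mm10 per the submitters' processing notes. The protocol in the labels also speaks of human cardiac tissue, so its dissociation details may belong to another study. Cells with at least 500 UMIs, 300 genes and at most 20% mitochondrial UMIs were kept and doublets removed with Scrublet (scanpy 1.11.5). Clusters (2000 variable genes, 30 components, 15 neighbours, Leiden resolution 1) left out the 10 genes and the HIF lists. Names came from marker panels (3 genes, log2 enrichment of 1). A leukocyte name also needed leukocyte genes, a rule added after a cluster of 19 and 108 cells with T-cell markers at tumour-cell depth was seen, which stayed unnamed, as did tumour clusters under 50 cells. Ratios have exact conditional-binomial, levels exact Poisson, and shares Clopper-Pearson 95% intervals. UMIs of 1 cell are molecules, but cells are not replicates. The calculations were tested on simulated data. Members and lists were chosen with earlier results of these data known. Aldoa and Ddit3, each listed on 2 rows, were left out. From the lists, genes are named by the 4 largest absolute log2 ratios at 10 CPM or more, plus Hif1a, Epas1, Egln1, Vhl, Car9, Pgk1, Ldha and Slc2a1, and by the 15 highest correlations. One gene that this rule names is not reported here.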

Additional observations from a re-analysis of the deposited data

How the results depend on the processing

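The median log2 ratio of the 8 measured genes in tumour cells, 0.83 as reported, was 0.67 with a pseudocount of 1 CPM, 0.92 with no minimum of UMIs (10 genes), 0.69 with equal weight to each tumour cluster, 0.71 after thinning to 4000 UMIs and 0.69 without the cluster richest in Bnip3 and Ndrg1, an alternative chosen after seeing the data. The number higher stayed between 4 and 8, and was 5 when mitochondrial and ribosomal-protein genes were left out of the total, where Ero1l reached 0.50 without passing. Over 12 alternatives the log2 ratio ran from 1.02 to 1.10 for Bnip3, 1.07 to 1.17 for Ankrd37, 0.36 to 0.61 for Ndrg1, 1.01 to 1.30 for Ddit4, 0.06 to 0.23 for Vegfa, 0.34 to 0.60 for Ero1l, 0.21 to 0.35 for P4ha1 and 0.76 to 1.26 for Selenbp1, so none changed sign. The ratio of high cells, 3.15, was 2.32 at 6000 UMIs per cell, 1.73 without thinning, 2.32 with the limit at 10% of control cells and 2.98 to 3.46 over 3 other random thinnings, which were added after seeing the data. The members' sum in macrophages and monocytes was 552 and 780 CPM with a gate on single cells (log2 ratio 0.50), and its log2 ratio was 0.47 with doublets kept. Without mitochondrial and ribosomal-protein genes the median of the glycolytic list was 0.38 and that of the ATF4 list -0.14. The causes of these changes were not tested. No paired analysis was possible because each diet has 1 library and no result comes from a test. Depth limits Egln3, Adm and Selenbp1 most in tumour cells, and diet cannot be told apart from any other difference between the libraries.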
